A study of Rattus norvegicus with 9 samples.

Results

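Enpp1, Slc28a2 and P2rx2 are genes of extracellular purine handling, here followed in rat lung after exposure to cigarette smoke or fine particles. They were chosen by name, as the genes of this kind among the 29 protein-coding genes that can be named from the array's catalogue probes. Each is measured by a single Agilent catalogue probe spotted 10 times on every array. The probe for Enpp1 is A_43_P12841 (NM_053535), that for Slc28a2 is A_44_P1024721 (NM_031664) and that for P2rx2 is A_44_P288091 (NM_053656). All 3 probes passed the filter on dim probes and are among the 37643 probes tested, of 38804 on the array.

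Cells release ATP when they are stretched, stressed or damaged, and outside the cell it acts as a signal until enzymes on the cell surface break it down. Enpp1 (ectonucleotide pyrophosphatase/phosphodiesterase) splits extracellular ATP into AMP and pyrophosphate, an inhibitor of mineral deposition, and also hydrolyses the cyclic dinucleotide cGAMP. AMP can be turned into adenosine by other enzymes, and Slc28a2 (a concentrative nucleoside transporter, also called CNT2) takes adenosine and other purine nucleosides into the cell together with sodium. P2rx2 is a subunit of ATP-gated cation channels and is best known from sensory neurons, including those of the airways. Of 38 further genes of this pathway that were listed (other ectonucleotidases, nucleoside transporters, P2 receptors and adenosine receptors), 0 can be named from the catalogue probes, so the pathway is seen through these 3 genes only.

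Whole lung of male Wistar rats was measured on 9 custom 1-colour arrays, 3 per group. Rats of the CS group were exposed to cigarette smoke for 90 days and those of the PM2.5 group to fine particulate matter for 90 days, each as a model of COPD (chronic obstructive pulmonary disease), while control rats inhaled NS, which the labels do not spell out, for 90 days. The age is given as 6 to 8 weeks, without saying at which point of the study. Lungs are described as archived after 90, 91 and 92 days for replicates 1, 2 and 3 of the CS and PM2.5 groups and after 90 days for all control rats. The labels give neither the dose of smoke or particles nor a genetic change in any group, and call the arrays biological replicates. The files do not settle whether the 3 control arrays, which were more alike than the exposed arrays, came from 3 animals, so fits that take them as 1 sample are given beside the calls against control. Of 38 marker genes listed for lung cell types and for liver and muscle, 0 can be named on the array, so the labelled tissue could not be checked. In RNA of whole lung, a change in the number of cells of a type and a change in RNA per cell cannot be told apart.

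The arrays differed in ways that bear on these genes. The file headers put the 3 control arrays in 1 scan record with no exposed array, so effects of scan and of exposure against control cannot be told apart. Another record holds replicates 2 and 3 of CS with replicates 1 and 2 of PM2.5, and CS 1 and PM2.5 3 have one each. The 75th percentile of the processed signal was 340 to 354 on control arrays, 195 to 219 on CS arrays and 166 to 269 on PM2.5 arrays. The median probe had an SD between arrays of 0.082 log2 units in the control group, 0.22 in the CS group and 0.27 in the PM2.5 group. Levels below are log2 signals minus the 75th percentile of the same array, as means over the spots of a probe, unless quantile normalization is named. Differences were tested with limma over all 37643 probes, and a gene passed at an adjusted p (Benjamini-Hochberg) below 0.05.

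Enpp1 was higher in both exposed groups, with the clearer rise after PM2.5. Its level was 1.66, 1.68 and 1.61 on the control arrays, 2.31, 1.94 and 2.03 on the CS arrays and 2.56, 2.62 and 2.57 on the PM2.5 arrays (replicates 1 to 3). The groups did not overlap in this scaling: every CS array lay above every control array, and every PM2.5 array above every CS array. Over all tested probes, CS arrays lay above control arrays without overlap at 56.8%. PM2.5 arrays did so at 55.9%, and CS arrays lay below PM2.5 arrays without overlap at 10.5%. The SD between PM2.5 arrays was 0.032 in this scaling and 0.063 after quantile normalization, against 0.036 and 0.028 between control arrays, while CS 1 stood above the other CS arrays. After centring on the median, CS and control arrays overlapped, with CS 3 (3.67) below control 1 (3.75) and control 2 (3.74).

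**Figure D1:**
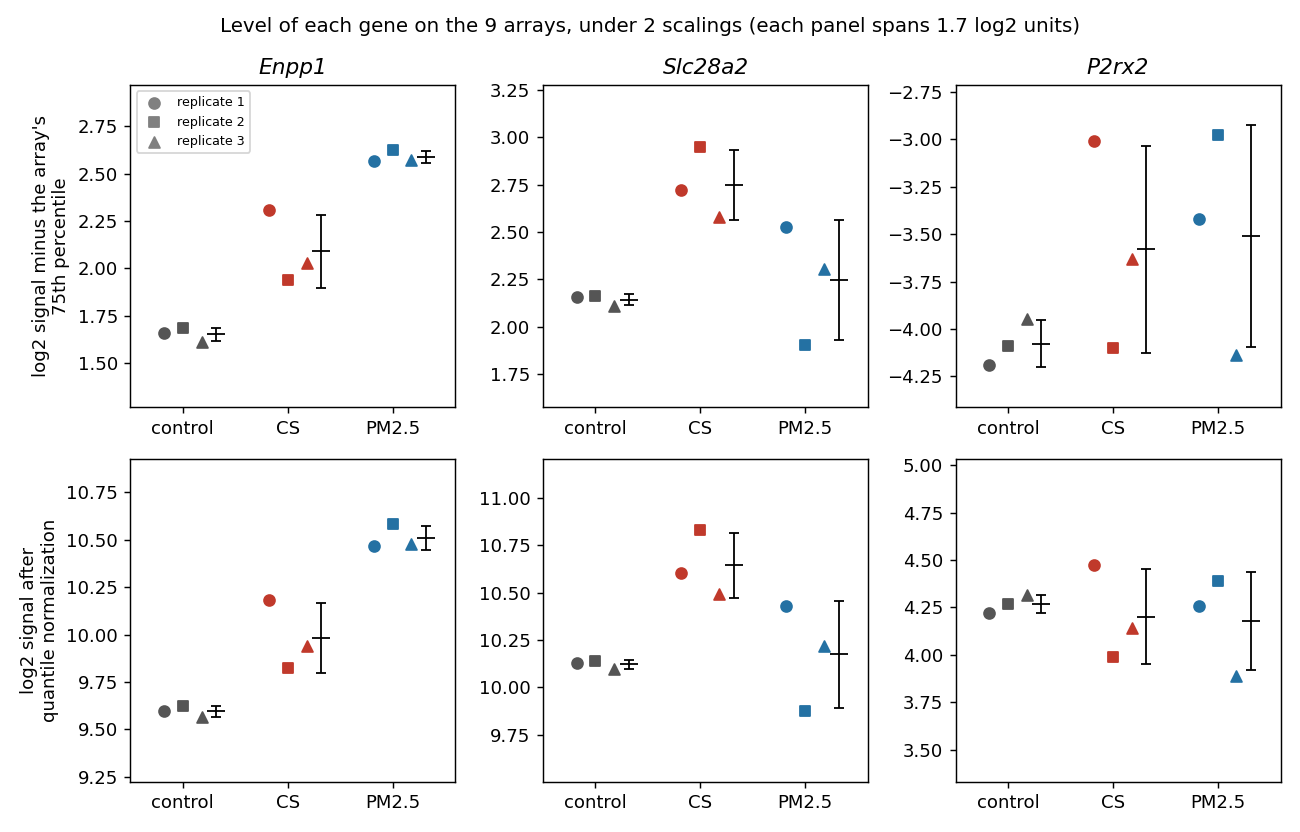
Levels of Enpp1, Slc28a2 and P2rx2 on the 9 arrays, in log2 units relative to the 75th percentile of each array (top) and after quantile normalization (bottom). Points are arrays, with the shape giving the replicate number, and bars are the group mean ± SD (n = 3). Enpp1 forms 3 separate levels under both scalings, Slc28a2 is high on the 3 CS arrays, and P2rx2 shows no separation of the groups.

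In PM2.5 lungs Enpp1 rose by 0.93 log2 units (SE 0.12, 95% interval 0.66 to 1.21, adjusted p = 0.000619), a 1.91-fold higher signal. The PM2.5 arrays had a mean level of 2.59 ± 0.032 (SD, n = 3), and the control arrays one of 1.65 ± 0.036 (SD, n = 3). It was the 1 gene of the 3 to pass in this comparison, where 56.8% of all probes passed and 47.1% were called higher. The share called higher depends on the scaling, and the median change over all probes was 0.51 log2 units in this one. After quantile normalization, where that median was 0.0695, Enpp1 rose by 0.91 (adjusted p = 0.00028) while 14.7% of probes were called higher. Its change was larger than that of 88.1% of probes in the 75th percentile scaling and of 97.3% after quantile normalization. Among the 29 named genes it ranked number 3 by its change. Non-overlapping, higher arrays were found at 55.9% of probes, so the separation of the arrays by itself does not set Enpp1 apart.

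The rise in PM2.5 lungs passed in 23 of the 24 alternative fits, including all 9 that left out an array (0.92 to 0.95). The 1 fit in which it did not pass counted the control arrays as 1 sample (adjusted p = 0.0639), and with quantile normalization it passed in that fit as well (0.91, adjusted p = 0.0373). Centring on the median gave a smaller rise of 0.49 (adjusted p = 0.0135). Fits that left out a CS array keep the rise at 0.93 by design, so only its SE and adjusted p could change.

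In CS lungs Enpp1 rose by 0.44 log2 units (SE 0.12, 95% interval 0.16 to 0.72, adjusted p = 0.0204), a 1.36-fold higher signal, from a CS mean of 2.09 ± 0.19 (SD, n = 3). Enpp1 and Slc28a2 were the 2 genes of the 3 to pass in this comparison, against 47.2% of all probes passing and 38.7% called higher. The Enpp1 change was about that of the median probe in this scaling, 0.45, and larger than that of 49.3% of probes. After quantile normalization the median was 0.0622, Enpp1 rose by 0.39 (adjusted p = 0.0307) and lay above 84.7% of probes, while 12% of probes were called higher. Centring on the median left a difference of 0.054 (adjusted p = 0.765).

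The Enpp1 call in CS lungs depended on single arrays. Without control 1, 2 or 3 the log2 difference was 0.44, 0.45 and 0.42 with adjusted p = 0.0693, 0.0628 and 0.0652, and without CS 1 it was 0.33 with adjusted p = 0.0580. Over all 24 alternatives it passed in 14, always as a rise. It was lost among others with scan record as a random block (0.45, adjusted p = 0.128) and when the 3 control arrays stood for 1 sample (0.44).

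Set directly against each other, CS lungs had a lower Enpp1 level than PM2.5 lungs in the fit over all arrays (log2 difference −0.50, SE 0.12, 95% interval −0.77 to −0.22, adjusted p = 0.0483). That fit pools the spread of all 9 arrays, including the control arrays, which had the smallest spread at the median probe. For Enpp1 itself the SD was 0.036 between control, 0.032 between PM2.5 and 0.19 between CS arrays. With only the CS and PM2.5 arrays in the limma fit, the Enpp1 difference of −0.50 (SE 0.16) did not pass (adjusted p = 0.245). That fit also has fewer arrays from which to estimate the spread. The comparison of CS with PM2.5 is also the test of whether the effects of the exposures differed, since they share the control arrays. Of all probes, 5.88% passed and 2.75% were called lower, and among the 29 named genes Enpp1 had the lowest value. The PM2.5 arrays lay at least 0.26 log2 units above the CS arrays, and lower CS arrays without overlap were found at 10.5% of probes.

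On the 4 arrays of the shared scan record, the difference was −0.61. After quantile normalization it was −0.53 (adjusted p = 0.0172), where 3.54% of probes were called lower. The adjusted p lay close to the threshold. The difference stayed between −0.61 and −0.42 in the 24 alternative fits but passed in 7 of them, with adjusted p from 0.0150 to 0.359. It passed without CS 1 (−0.60, adjusted p = 0.0263) and in no other fit that left out an array, the values without CS 2, CS 3, PM2.5 1, PM2.5 2 and PM2.5 3 being −0.42, −0.46, −0.51, −0.48 and −0.50 (adjusted p 0.0811 to 0.137). It also did not pass without control 1, 2 or 3 (each −0.50, adjusted p 0.103 to 0.111).

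The spots show how precisely each array measured Enpp1. The spots of 1 array had an SD of 0.047 to 0.20 log2 units, which puts the standard error of an array's mean at 0.015 to 0.062. The gap of 0.88 log2 units between the lowest PM2.5 and the highest control array is far larger. Each spot lies at the same place on all arrays, so the groups can also be compared place by place. At 10 of 10 places all PM2.5 arrays were above all control arrays, all CS arrays were above all control arrays, and all CS arrays were below all PM2.5 arrays. The difference between PM2.5 and control ranged over the places from 0.85 to 0.99. Spots of 1 array share their RNA, so these counts describe the measurement and are not replicates.

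**Figure D2:**
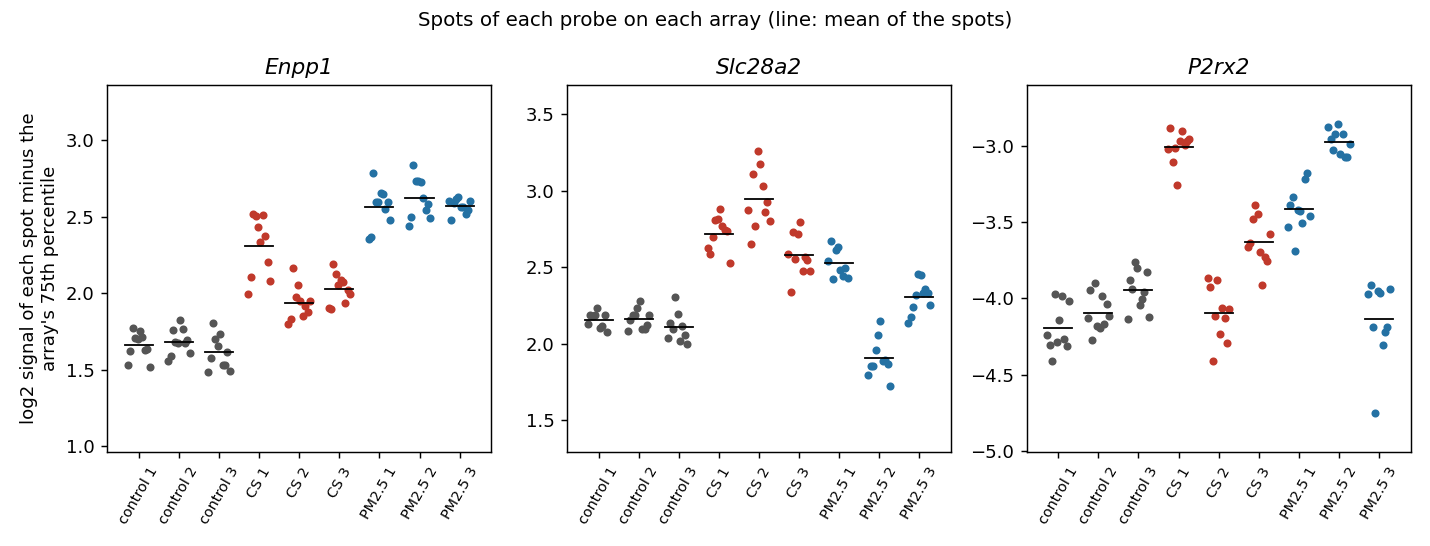
Level of each spot of the 3 probes on each array, in log2 units relative to the array's 75th percentile, without spots flagged as outliers. Points are spots and lines their means. For Enpp1 the spots of the 3 PM2.5 arrays lie above those of the 3 control arrays, while for P2rx2 the spots of single arrays form tight groups at levels that do not follow the groups of rats.

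Before any scaling between arrays, the Enpp1 signal was 1040 to 1140 on control arrays, 794 to 1080 on CS arrays and 984 to 1600 on PM2.5 arrays. The unscaled signals therefore overlapped between control and both exposures, and the higher levels arose relative to the other probes of each array. The rank of Enpp1 among the tested probes of its own array needs no scaling. Enpp1 was brighter than 85.3% to 85.6% of probes on control arrays, 86.5% to 88.3% on CS arrays and 89.6% to 90.2% on PM2.5 arrays. These ranks had the same order as the scaled levels, again without overlap. How many of all probes have ranks separated in this way was not computed, so the ranks do not set Enpp1 apart.

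Slc28a2 was higher in CS lungs and was not called in PM2.5 lungs. Its level was 2.16, 2.16 and 2.11 on the control arrays, 2.72, 2.95 and 2.58 on the CS arrays and 2.53, 1.90 and 2.31 on the PM2.5 arrays. In this scaling all CS arrays were above all control and PM2.5 arrays. The PM2.5 arrays spread around the control level, with PM2.5 1 and PM2.5 3 above every control array and PM2.5 2 below every one. After centring on the median, CS and control arrays overlapped, with CS 3 (4.22) below control 1 (4.25).

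In CS lungs Slc28a2 rose by 0.61 log2 units (SE 0.17, 95% interval 0.22 to 0.99, adjusted p = 0.0207), a 1.52-fold higher signal. The CS arrays had a mean level of 2.75 ± 0.19 (SD, n = 3), and the control arrays one of 2.14 ± 0.030 (SD, n = 3). The change exceeded that of 66.4% of probes in this scaling, and higher CS arrays without overlap were found at 56.8% of probes. After quantile normalization Slc28a2 rose by 0.52 (adjusted p = 0.0295) and exceeded 91.3% of probes, and with cyclic loess normalization it rose by 0.48 (adjusted p = 0.0401).

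The Slc28a2 call in CS lungs was lost without control 1, 2 or 3 (0.61, 0.62 and 0.59, adjusted p = 0.0642, 0.0613 and 0.0602), with scan record as a random block (0.62, adjusted p = 0.165), with the control arrays counted as 1 sample (0.61), with normexp (0.59, adjusted p = 0.116) and after centring on the median (0.22, adjusted p = 0.489). It held without each of the CS arrays (0.51 to 0.69, adjusted p 0.0341 to 0.0465).

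In PM2.5 lungs the Slc28a2 difference from control was 0.10 log2 units (SE 0.17, 95% interval −0.28 to 0.49, adjusted p = 0.610) and 0.053 after quantile normalization (adjusted p = 0.819). The PM2.5 arrays had a mean of 2.25 ± 0.32 (SD, n = 3). The sign was not settled, since the value was −0.34 after centring on the median and −0.038 without PM2.5 1. The CS estimate of 0.61 lies outside this interval, but the 95% interval of that estimate, 0.22 to 0.99, overlaps it. Smaller changes in either direction lie within the PM2.5 interval.

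Between the exposures, Slc28a2 had a level 0.50 log2 units higher after CS than after PM2.5 (SE 0.17, 95% interval 0.12 to 0.89), which did not pass the adjustment over all probes (adjusted p = 0.139). The lowest CS array lay 0.052 log2 units above the highest PM2.5 array, and higher CS arrays without overlap were found at 8.83% of probes. The difference was 0.55 on the arrays of the shared scan record and 0.33 to 0.64 in the fits that left out an array, with adjusted p from 0.0742 to 0.439 over the 24 alternatives. A difference between the exposures in Slc28a2 is therefore not established here, although its call against control was made in CS only.

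For Slc28a2 the standard error of an array's mean over its spots was 0.017 to 0.061 log2 units, after 3 spots on 3 different arrays were flagged as outliers and left out. The SD between PM2.5 arrays was 0.32, so the gap between PM2.5 1 and PM2.5 2 is larger than the scatter of spots. The unscaled signal was 1460 to 1590 on control, 1160 to 1670 on CS and 674 to 1330 on PM2.5 arrays. Within its own array Slc28a2 was brighter than 87.9% to 88.1% of probes on control arrays, 89.7% to 91.3% on CS arrays and 86.8% to 89.4% on PM2.5 arrays. The CS ranks lay above all others, and the PM2.5 ranks spanned those of control. How many of all probes have CS ranks above all others was not computed.

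**Figure D3:**
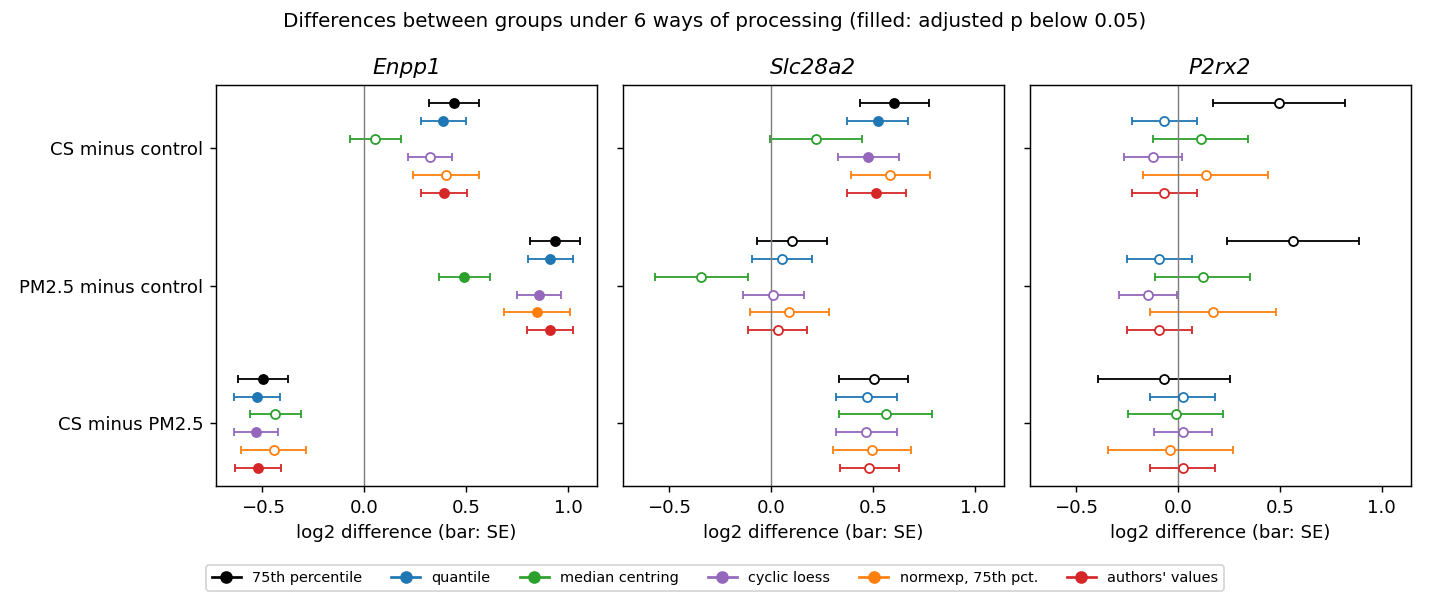
Log2 differences between groups (bars: SE) for Enpp1, Slc28a2 and P2rx2 under 6 ways of processing; filled points have an adjusted p below 0.05. The Enpp1 rise in PM2.5 lungs is filled throughout, from 0.49 to 0.93, while the P2rx2 differences from control are 0.50 and 0.57 in the reported processing and lie between −0.15 and 0.17 in the others.

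P2rx2 gave a dim signal that did not separate the groups. The median ratio of spot to local background was 2.14 to 4.11 over the arrays, against 62.2 to 112 for Enpp1, although all 10 spots counted as well above background on every array. Its level was −4.19, −4.09 and −3.95 on the control arrays, −3.01, −4.10 and −3.63 on the CS arrays and −3.42, −2.98 and −4.14 on the PM2.5 arrays. CS 1 and PM2.5 2 were highest, and CS 2 and PM2.5 3 lay within the range of the control arrays, so both exposed groups overlapped with control.

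The P2rx2 difference was 0.50 log2 units for CS against control (SE 0.32, 95% interval −0.23 to 1.23, adjusted p = 0.209) and 0.57 for PM2.5 against control (SE 0.32, 95% interval −0.16 to 1.30, adjusted p = 0.152). After quantile normalization these were −0.067 and −0.091 (adjusted p = 0.793 and 0.708), so the sign depended on the scaling. In both comparisons the values in the 75th percentile scaling were close to the median over all probes, 0.45 and 0.51. Between CS and PM2.5 the difference was −0.069 (SE 0.32, 95% interval −0.80 to 0.66, adjusted p = 0.972). These intervals leave room for changes of the size seen for Enpp1, so the data do not show that P2rx2 stayed the same.

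A single array moved the P2rx2 values. Without PM2.5 3 the PM2.5 difference was 0.88 and passed (adjusted p = 0.0247), while without PM2.5 2 it was 0.30 (adjusted p = 0.451). In the fit without PM2.5 3, 24947 of the 37643 probes passed and 21500 were called higher, so this call does not set P2rx2 apart. Without CS 1 the CS difference was 0.21 (adjusted p = 0.586), and without CS 2 it was 0.76 (adjusted p = 0.0738). Between CS and PM2.5, the value was 0.19 without CS 2 and 0.20 without PM2.5 2 (adjusted p = 0.907 and 0.820), against −0.35 without CS 1 and −0.38 without PM2.5 3 (adjusted p = 0.568 and 0.425).

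On every array the P2rx2 level lay between the lowest and the highest of 10 E1A control probes, which come from an adenovirus gene and have no rat target. These probes belong to another control class than the negative control probes. Whether RNA matching them was added to the samples was not examined, so their level is not taken as a background level. The 153 negative control probes were dimmer, and P2rx2 lay at least 2.71 log2 units above the highest of them on each array. The mean level of the E1A probes was −3.51, −3.41 and −3.28 on the control arrays, −2.35, −3.06 and −2.67 on the CS arrays and −2.54, −2.13 and −3.18 on the PM2.5 arrays. CS 1 and PM2.5 2, the arrays with the highest P2rx2 level, also had the highest E1A levels. Against the control arrays, the E1A mean was 0.70 log2 units higher in the CS group and 0.78 higher in the PM2.5 group, and the mean of the negative control probes 0.51 and 0.44 higher. In the same scaling the CS rise of Enpp1 (0.44) was below both CS shifts, and that of Slc28a2 (0.61) lay between them. The PM2.5 rise of Enpp1 (0.93) was above both PM2.5 shifts. The part of these control probe shifts in the values of the 3 genes was not tested.

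**Figure D4:**
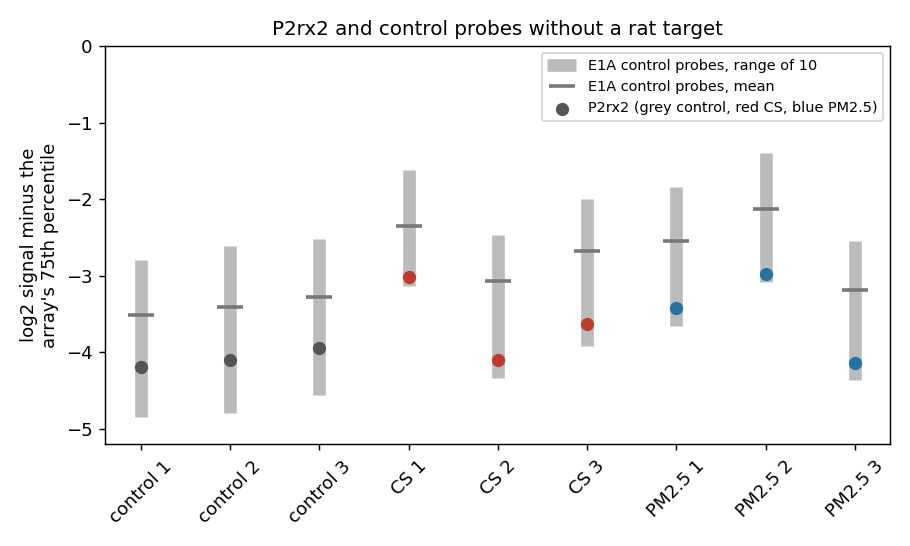
Level of P2rx2 on each array (points) beside the range and mean of 10 E1A control probes without a rat target, in log2 units relative to the array's 75th percentile. P2rx2 lies in the lower part of the E1A range on all 9 arrays, and CS 1 and PM2.5 2 are highest for both.

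The spots again agreed closely within an array. For P2rx2 the standard error of an array's mean was 0.025 to 0.082 log2 units, against an SD between arrays of 0.55 in the CS group and 0.59 in the PM2.5 group. All CS arrays lay above all control arrays at 1 of 10 spot places and all PM2.5 arrays at 3 of 10. Within its own array P2rx2 was brighter than 12.1% to 13.5% of probes on control arrays, 9.04% to 16% on CS arrays and 7.95% to 14.6% on PM2.5 arrays.

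The 3 genes did not share 1 pattern over the 9 arrays. The Pearson correlation of their levels, given as a description over 9 arrays that also share scan records, was 0.062 for Enpp1 with Slc28a2, 0.62 for Enpp1 with P2rx2 and 0.012 for Slc28a2 with P2rx2. After quantile normalization these were −0.061, −0.018 and −0.29. Of the 28 other named genes, the level of Napepld, whose enzyme releases N-acylethanolamines, was most like that of Enpp1 (r = 0.937, and 0.964 after quantile normalization), followed by the growth factor gene Fgf2 (0.779) and the centrosome gene Odf2l (0.741). The genes most like Slc28a2 were Pop7, a ribonuclease P subunit (0.733), Gdnf, a neurotrophic factor (0.449), and Magoh, of the exon junction complex (0.439). After quantile normalization the order was Gdnf (0.799), Pop7 (0.696) and Fgf2 (0.545), with Magoh at 0.147. Those most like P2rx2 were the synaptic scaffold gene Dlg4 (0.990), the microtubule-associated protein gene Map2 (0.987) and the hormone receptor gene Lhcgr (0.960). After quantile normalization Dlg4 stayed at 0.952 with P2rx2, while Lhcgr was at 0.641 and Map2 at 0.380, behind Med16 (0.626), a Mediator subunit.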

How the data were processed

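The deposited scanner files hold 1-colour intensity values. Per the file headers, Agilent Feature Extraction (version 11.0.1.1) made them, background subtracted within each array and not normalized between arrays. Other values in the deposited files are spot flags of 0 or 1. The authors' deposited series table holds log2 values whose between-array normalization is not given in the sources used here; every column had a median of 6.03 and a correlation of 0.997 to 0.999 with the scanner values, so the columns share a centre. On the tested probes their values differed from quantile-normalized scanner values by a median of 0.00104 log2 units (at most 0.0287 for the 3 genes). The largest difference was 2.04. For most probes the values are thus close to quantile normalization, though the method is unstated.

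Spots flagged as outliers were left out, spots of a probe were averaged as log2 of the processed signal, and each array's 75th percentile was subtracted. A probe was tested if it was well above background throughout 1 group or more, which left out 939, and had an unflagged spot on each array, which left out 222. Of 50 catalogue probes, 30 matched a RefSeq gene by accession, 29 of them protein-coding. No spot was saturated (0). The array header and the gene table differ in genome build, so no positions are given. Groups were compared by limma (version 3.58.1, R 4.3.3) with two-sided moderated tests from lmFit and eBayes in 1 fit of 9 arrays. The fit was checked on simulated data with independent arrays and 1 SD per probe for all groups. That check does not cover the unequal spread of the groups or the shared scan records. The 3 arrays per group limit the precision. The p-values set each difference against the spread between these arrays, pooled over the 3 groups. The members, lists and tests were chosen with earlier results of these data known. Named are the 3 members in every comparison and, beside each, the 3 other named genes of highest Pearson correlation.

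Alternatives were quantile normalization, median centring, normexp with an offset of 50 on median spot and background signals, the authors' values, other filters, the median of spots, a variance weight per group, replicate number or scan record as a block, control arrays as 1 sample, only the groups compared and leaving out each array. Cyclic loess normalization and leaving out CS 1 and PM2.5 3, scanned apart, were chosen after seeing the data. Same-numbered arrays of different groups deviated from their group means with correlations of −0.45 to 0.18, and differently numbered ones with −0.615 to 0.59. With 3 arrays per group these correlations cannot decide whether the numbers pair the arrays. The reported fit used no pairing.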

Additional observations from a re-analysis of the deposited data

Results flagged for a closer look

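The effects of CS and PM2.5 on Enpp1, measured against the same control arrays, differed in a direct test that pooled the spread of all 9 arrays. The log2 difference between CS and PM2.5 lungs was −0.50, with limma's adjusted p = 0.0483. The control mean was 1.65, the CS mean 2.09 and the PM2.5 mean 2.59. The call was close to the threshold and was lost in 17 of 24 alternative fits, all with the same sign. Among these was the limma fit of the CS and PM2.5 arrays alone (adjusted p = 0.245). For this difference the fit that took the control arrays as 1 sample gave the same values, so the alternatives are not all independent. Groups of 3 arrays were not searched for outlying arrays.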

How the results depend on the processing

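Over 24 alternatives, 216 differences of the 3 genes were compared with those reported: 162 kept direction and side of the threshold, 36 lost the call, 2 gained it and 16 changed sign. The cause was not tested in any of these. Values are log2 differences, then counts of probes passing (17756 for CS against control, 21392 for PM2.5 against control and 2214 for CS against PM2.5 as reported). Quantile normalization gave P2rx2 −0.067 (CS), −0.091 (PM2.5) and 0.024 (CS minus PM2.5), with 9313 and 11231 probes for the comparisons with control. The authors' values gave −0.067, −0.091 and 0.024, with 9326 and 11229. Cyclic loess gave P2rx2 −0.12, −0.15 and 0.025 and Enpp1 0.32 in CS, with 10308 and 11839. Centring on the median gave, in CS, Enpp1 0.054 and Slc28a2 0.22, in PM2.5 Slc28a2 −0.34, and between exposures Enpp1 −0.44, with 9094 and 12524. Higher calls were 82.1% of the calls in CS as reported, 48.4% after quantile normalization, 31.7% after centring on the median, 41.8% after cyclic loess and 48.6% in the authors' values; in PM2.5 they were 82.8%, 49.3%, 38.1%, 43.5% and 49.2%, and between exposures 53.2% as reported and 67.2% after centring. Normexp gave Enpp1 0.40 and Slc28a2 0.59 in CS and Enpp1 −0.45 between exposures, with 2388, 3062 and 510. Scan record as a random block gave Enpp1 0.45 and Slc28a2 0.62 in CS, with 2371 and 7901. Control arrays as 1 sample gave 0.44 and 0.61 in CS, Enpp1 0.93 in PM2.5 and −0.50 between exposures, with 166, 1423 and 625. With quantile normalization as well, these were 0.39 and 0.52 in CS and −0.53 between exposures, P2rx2 was −0.067, −0.091 and 0.024, and counts were 524, 2288 and 1315. Enpp1 between exposures was also not called without the filter (−0.50), with the median of spots (−0.48), a variance weight per group (−0.50, 1081 probes) or only the groups compared (−0.50, 625). With the replicate block it was −0.50 (adjusted p = 0.125) and 1204 probes passed; no other call of the 3 genes changed under the block. On the arrays of the shared scan record Enpp1 was −0.61 and P2rx2 −0.67 between exposures. Without CS 1 and PM2.5 3, scanned apart, P2rx2 was 0.88 in PM2.5 and passed, as did 26805 of the 37643 probes, 23036 of them higher.

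Leaving out 1 array at a time gave Enpp1 0.33 to 0.52 in CS, 0.92 to 0.95 in PM2.5 and −0.60 to −0.42 between exposures. Slc28a2 was 0.51 to 0.69, −0.038 to 0.27 and 0.33 to 0.64, and P2rx2 0.21 to 0.76, 0.30 to 0.88 and −0.38 to 0.20. Counts were 8007 to 21898 in CS, 13269 to 24947 in PM2.5 and 1332 to 2575 between exposures. P2rx2 spots were 2.14 to 4.11 times their local background, against 62.2 to 112 for Enpp1.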

Other observations

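The spread of Enpp1 between the PM2.5 arrays was low for that group. Its SD was 0.032 log2 units, lower than that of all but 1.34% of the tested probes, whose median SD in the PM2.5 group was 0.27. After quantile normalization the SD was 0.063, lower than that of all but 7.75% of probes, with a median of 0.20. In the CS group the Enpp1 SD was 0.19, above that of 42.7% of probes (54.5% after quantile normalization). For P2rx2 the SD was above that of 92.9% of probes in the CS group and 92.4% in the PM2.5 group, which became 71.8% and 65.2% after quantile normalization.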
